A study of Homo sapiens with 12 samples.

Results

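A set of 43 genes for lysosomal enzymes, lysosomal membrane proteins and the transcription factors TFEB and TFE3 was examined in K562, an established cell line of chronic myeloid leukemia. The genes were named in a list that had been drawn up with results of the RNA comparison of these cells known, and all 43 were found by symbol among the 27348 genes of the deposited expression table. K562 cells had been infected with lentiviral pLKO.1 vectors carrying 1 of 2 hairpins against the long isoform of PHF19 (sh#1 or sh#2) or with the empty vector (shCT), and all of them had been selected with puromycin. RNA-seq covered 6 libraries, 2 in each of the 3 groups. ChIP-seq covered 6 libraries, 1 per condition: PHF19 in sh#1, sh#2 and shCT, MTF2 in sh#2 and shCT, and an IgG control in shCT, each with fly chromatin added as a spike-in. Peak lists were analysed here for MTF2 in sh#2, MTF2 in shCT and PHF19 in shCT. PHF19 peaks of the hairpin-treated cells and IgG peaks were not analysed here, so the loss of PHF19 from its own sites was not checked.

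Lysosomes degrade proteins, glycans and lipids with acid hydrolases, which are mostly delivered through mannose 6-phosphate receptors, and their limiting membrane carries heavily glycosylated proteins, transporters and channels. Many of their genes share a promoter element with the core CACGTG, which is read by TFEB and its relative TFE3. PHF19 and MTF2 are Polycomb-like proteins, accessory subunits of Polycomb repressive complex 2 (PRC2), the enzyme that methylates lysine 27 of histone H3. Both are known to bind CpG-rich DNA and to bring PRC2 to silent promoters.

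Some features of the files limit every value that follows. The expression table gave 1 mean normalized count per gene over all libraries, with no value per library or group, and it was used only as a level. Fold changes and p-values of the RNA comparison were not used. The ChIP-seq lists gave 1 library per condition, so no test between conditions was possible, depth was unknown, and intervals cover counting error only. The heading inside the MTF2 list of sh#2 names a hairpin 4 where the label gives hairpin 2, and the heading of the PHF19 list names hairpin 4 beside the control, so the control used for that call is uncertain. Which hairpin these headings refer to cannot be told from the files. Markers of K562 were present, with 9 of 9 erythroid genes at a mean normalized count of 10 or more, and the erythroid factor GATA1 stood at 4811 normalized counts per kb of transcript. Of 8 macrophage markers, 2 reached that minimum. They were ITGAM, at 16.3 per kb, and LYZ, which encodes lysozyme, at 1565 per kb. CD14 and CSF1R were at 1.50 and 0.723 per kb and MARCO at 0. One osteoclast marker of 6, 3 lymphoid markers of 6 and 1 fibroblast marker of 5 reached it too. Whether these markers differed between the groups was not tested.

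Peaks of PHF19 or MTF2 lay at 6 of the 43 lysosomal genes, and for each list the interval of the share included the share over all genes. A gene counted as a target when at least 1 bp of a peak lay between 2.5 kb upstream of a transcription start site (TSS) and the end of the transcript. This region follows the original study, which also required a minimum of tags for a PHF19 peak. That minimum could not be applied to the deposited list, so the set of PHF19 peaks and targets used here is much larger than that of the study. It holds 5621 peaks and 2467 target genes. The list of PHF19 peaks placed 3 of the 43 lysosomal genes among its targets, namely NPC2, LAMP1 and CTSC, or 6.98% (exact binomial 95% interval 1.46 to 19.1%), against 10.1% of all 24410 genes that could be placed on the genome. MTF2 in sh#2 and MTF2 in shCT each gave 3 targets, the genes NPC1, ARSB and TFEB in both lists. That share of 6.98% stood beside 17.9% of all genes in sh#2 and 13.4% in shCT. Genes with a mean normalized count of 10 or more are called expressed genes from here on, and 42 of the 43 lysosomal genes were among them. In expressed genes the background was 12% for MTF2 in sh#2, 9.01% for MTF2 in shCT and 10.1% for PHF19 in shCT. Within 2.5 kb of a TSS the same 3 genes of each list were bound, against 15.5% of all genes for MTF2 in sh#2, 11% for MTF2 in shCT and 7.81% for PHF19. The interval of the lysosomal genes over the target region includes the background of each list.

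**Figure D1:**
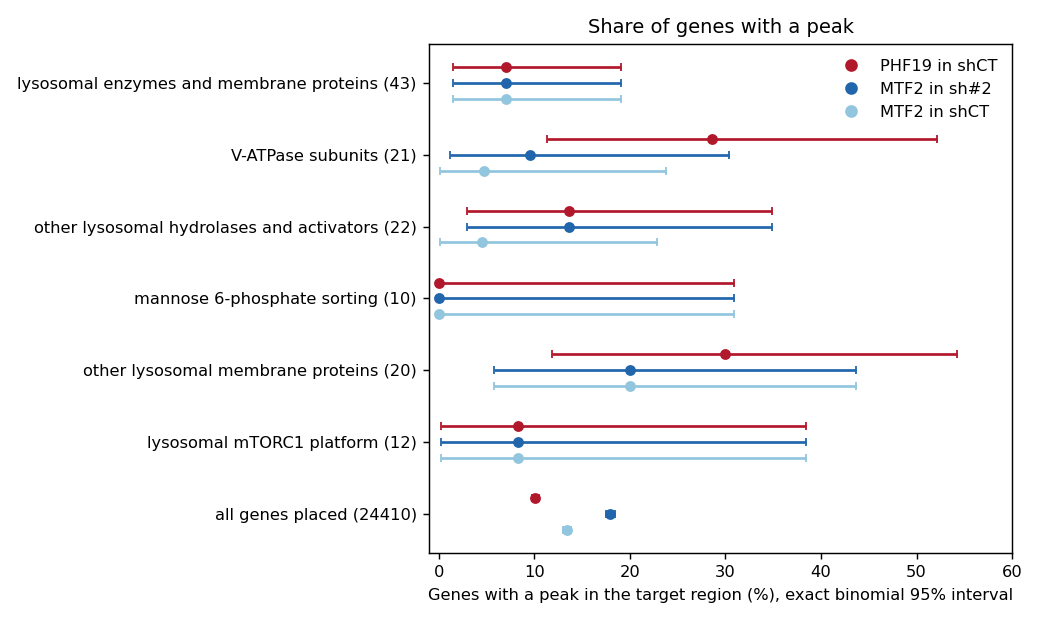
Percentage of genes with at least 1 peak in the target region (horizontal axis) for the lysosomal genes, for 5 further lysosomal gene lists and for all genes placed, with the number of genes in brackets. Points are the 3 peak lists and bars exact binomial 95% intervals, which cover counting error only. The lysosomal enzymes and membrane proteins lie at 6.98% in each list.

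None of the 43 genes had a PHF19 peak together with an MTF2 peak. In shCT, 0 of 43 carried both, against 6.55% of all genes and 5.21% of expressed genes. Likewise 0 of 43 combined a PHF19 peak in shCT with an MTF2 peak in sh#2, against 7.17% of all genes and 5.77% of expressed genes. A count of 0 in 43 allows a share of up to 6.98% by the limit of 3 counts, and up to 8.22% by the exact interval. The exact interval includes both backgrounds. Of all 2467 PHF19 target genes, 29.1% had no MTF2 peak in sh#2 and 35.2% had none in shCT. Among the 1413 expressed PHF19 targets, the class in which NPC2, LAMP1 and CTSC fall, 48.3% had no MTF2 peak in shCT and 40.6% had none in either list. In this list, to which the study's minimum of tags was not applied, PHF19 targets without MTF2 therefore were common among expressed PHF19 targets. The original study reports that most of its PHF19 targets were MTF2 targets too. PHF19 peaks with no MTF2 peak in either list had a median score of 63.82, against 72.28 over all PHF19 peaks. Whether these shares hold at a higher score was not tested. Conversely, 51.2% of the 3272 MTF2 targets in shCT had no PHF19 peak, NPC1, ARSB and TFEB among them.

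NPC2, LAMP1 and CTSC each had a PHF19 peak over the reference TSS, and CTSC had a second one far upstream. NPC2 encodes the soluble lysosomal protein that takes up cholesterol and hands it to NPC1. Its PHF19 peak spanned chr14:74958959-74960184 (GRCh37), 1226 bp with a score of 88.8, which ranked 1929 of 5621 peaks. It ran from 176 bp upstream to 1049 bp downstream of the TSS and covered exon 1 of 5, and the TSS of ISCA2, a gene for mitochondrial iron-sulfur cluster assembly, lay within 2.5 kb of it. LAMP1 encodes a major glycoprotein of the lysosomal membrane. Its peak, chr13:113950924-113951856, was 933 bp wide with a score of 65.26 (rank 3383) and reached from 630 bp upstream to 302 bp downstream of the TSS, over exon 1 of 9. That score was below the median of the list, 72.28, so LAMP1 was no target when only peaks at or above the median were kept. CTSC encodes cathepsin C, the dipeptidyl peptidase that activates serine proteases of granules. A peak of 1490 bp with a score of 80.83 (rank 2273) at chr11:88070250-88071739 ran from 835 bp upstream to 654 bp downstream of its reference TSS. CTSC had a second PHF19 peak at chr11:88092380-88093164, 785 bp wide with a score of 57.94 (rank 4285), which lay between 22260 and 21476 bp upstream of the reference TSS and over the start of another annotated CTSC transcript. The 4 peaks thus ranked between 1929 and 4285 of 5621, with the NPC2 peak highest among them. Whether any of the 4 would pass the study's minimum of tags is not known here.

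ACP5, the tartrate-resistant acid phosphatase of osteoclasts and macrophages, had no peak in its target region in any list. The nearest peaks lay 108 kb from its TSS for MTF2 in sh#2, 110 kb for MTF2 in shCT and 158 kb for PHF19 in shCT. Over the 43 genes the median distance from the TSS to the nearest peak was 83.1 kb for MTF2 in sh#2, against 114 kb over all genes. It was 113 kb for MTF2 in shCT, against 162 kb, and 112 kb for PHF19, against 225 kb. ACP5 was therefore closer than the median of all genes in each list and still far outside the target region.

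The promoter sequences of 4 bound genes are shown because PHF19 and MTF2 are known for CpG-rich DNA. That of LAMP1 follows further below, and that of TFEB, whose peaks lay far from the reference TSS, is not shown. ACP5 is added as a named gene with no peak, but its CpG content was low among such genes. Each sequence here is the 250 bp before the reference TSS on the gene's strand, 5′ to 3′, from GRCh37, with every CpG in capitals.
NPC2 (chr14:74960009-74960258, minus strand): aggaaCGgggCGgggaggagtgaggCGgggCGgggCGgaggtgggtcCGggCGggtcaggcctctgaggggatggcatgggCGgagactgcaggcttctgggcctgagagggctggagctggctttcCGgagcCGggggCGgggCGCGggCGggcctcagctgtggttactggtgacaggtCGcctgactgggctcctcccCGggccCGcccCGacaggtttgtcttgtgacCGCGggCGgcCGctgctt
CTSC (chr11:88070905-88071154, minus strand): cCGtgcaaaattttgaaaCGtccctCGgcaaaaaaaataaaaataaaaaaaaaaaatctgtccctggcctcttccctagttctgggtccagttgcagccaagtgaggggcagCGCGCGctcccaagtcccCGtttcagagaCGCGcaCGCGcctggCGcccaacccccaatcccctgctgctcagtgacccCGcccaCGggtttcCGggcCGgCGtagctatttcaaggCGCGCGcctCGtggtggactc
NPC1 (chr18:21166471-21166720, minus strand): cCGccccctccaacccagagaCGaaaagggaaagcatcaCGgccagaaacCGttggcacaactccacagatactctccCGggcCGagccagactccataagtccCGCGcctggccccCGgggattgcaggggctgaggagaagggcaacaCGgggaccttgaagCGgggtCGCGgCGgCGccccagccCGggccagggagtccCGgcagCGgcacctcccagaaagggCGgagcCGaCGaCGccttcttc
ARSB (chr5:78281134-78281383, minus strand): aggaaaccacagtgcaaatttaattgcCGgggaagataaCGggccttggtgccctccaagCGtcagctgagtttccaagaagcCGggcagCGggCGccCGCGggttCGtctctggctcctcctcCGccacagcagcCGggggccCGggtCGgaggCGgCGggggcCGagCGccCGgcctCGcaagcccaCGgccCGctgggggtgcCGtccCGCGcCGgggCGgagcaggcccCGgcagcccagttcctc
ACP5 (chr19:11688461-11688710, minus strand): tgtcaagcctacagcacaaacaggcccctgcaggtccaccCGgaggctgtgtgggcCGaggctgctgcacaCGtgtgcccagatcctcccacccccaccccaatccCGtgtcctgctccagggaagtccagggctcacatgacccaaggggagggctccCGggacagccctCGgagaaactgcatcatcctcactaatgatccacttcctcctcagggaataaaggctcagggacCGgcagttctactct
These stretches held 22 CpGs at NPC2, 21 at CTSC, 22 at NPC1 and 27 at ARSB, and 7 at ACP5. CpG content was compared as observed over expected, the CpG count divided by that expected from the C and G of the window, in the 300 bp from 250 bp upstream to 50 bp downstream of the TSS. The median was 0.827 over the 43 genes, 0.716 over all genes and 0.835 over expressed genes. The 6 genes with a peak had a median of 0.810 and the 37 without one 0.829, so the medians of lysosomal genes with and without a peak lay close together. The 6 pool PHF19 with MTF2 targets and include TFEB, whose peaks lay far from this window. LAMP1 was highest of all 43 at 1.16. The glycosidase genes GAA at 1.073 and FUCA1 at 1.031, both with no peak, came next, ahead of CTSC at 1.026. The lowest values also belonged to genes with no peak, which made up 37 of the 43. They were CTSS (cathepsin S, of antigen-presenting cells) at 0.0704, TPP1 (a tripeptidyl peptidase) at 0.273, ACP5 at 0.282 and CTSK (cathepsin K, of osteoclasts) at 0.375.

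Within the peaks themselves, observed over expected CpG was high for the list in most cases. Most of these peaks covered a TSS but were ranked against the whole list, and a background of TSS peaks alone was not taken. The LAMP1 peak had a higher observed over expected CpG than 99.1% of PHF19 peaks, the promoter peak of CTSC than 86.5%, and the NPC2 peak than 83.8%. The distal CTSC peak went the other way, with a lower CpG content than nearly all others: 2.38% of the list lay below it. For MTF2, the ARSB peak exceeded 98.7% of the list in sh#2 and 98.6% in shCT, that of NPC1 86% in sh#2 and 80.6% in shCT, and that of TFEB 72.8% in sh#2 and 77.9% in shCT.

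By overlap of at least 1 bp the MTF2 targets were NPC1, ARSB and TFEB in sh#2 and in shCT, and all 3 peaks were wider in sh#2. The call of TFEB depended on the overlap required and on the length of the lists. NPC1 encodes the membrane protein that exports cholesterol from the lysosome. Its MTF2 peak was 5253 bp wide with a score of 184.13 in sh#2 (chr18:21165066-21170318, rank 5696 of 18287), against 3803 bp and 137.38 in shCT (chr18:21166361-21170163, rank 3524 of 12502). The sh#2 peak reached 1404 bp downstream of the TSS and the shCT peak 109 bp, whereas the upstream ends lay 3848 bp and 3693 bp away. ARSB encodes arylsulfatase B, which removes sulfate from dermatan and chondroitin sulfate. Its peak was 2032 bp wide with a score of 151.45 in sh#2 (chr5:78280203-78282234), against 1478 bp and 192.98 in shCT (chr5:78280337-78281814), and both covered the TSS and exon 1 of 8. TFEB, the regulator of lysosomal genes, had its MTF2 peak at the far end of the gene, over exon 9 of 9. It was 3300 bp wide with a score of 60.56 in sh#2 (chr6:41649436-41652735), against 2366 bp and 65.19 in shCT (chr6:41649476-41651841). Of that width, 1020 bp in sh#2 and 126 bp in shCT lay inside the target region, so TFEB is a target by a narrow margin. Its reference TSS had no peak, but another annotated TFEB transcript starts 1500 bp from the sh#2 peak and 2394 bp from the shCT peak.

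**Figure D2:**
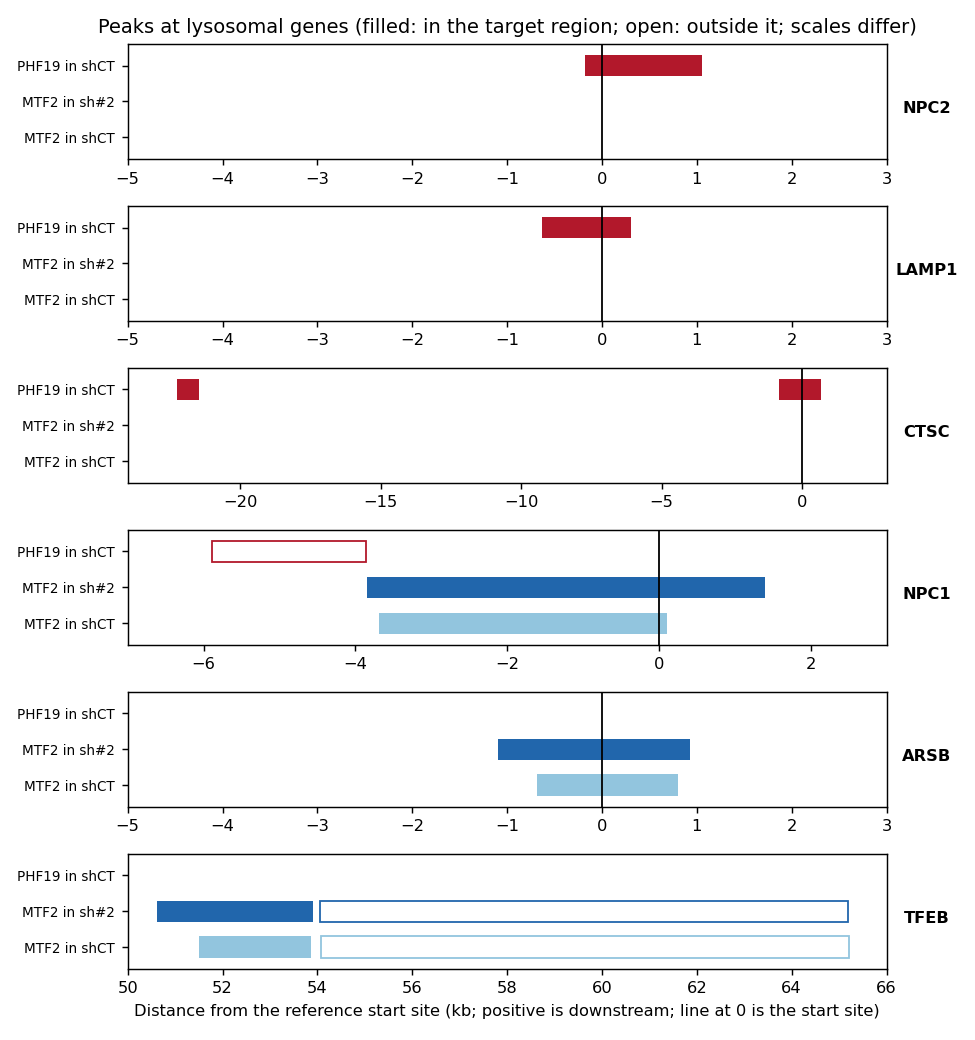
Peaks at the 6 lysosomal genes with a peak in the target region, by distance from the reference TSS in kb (horizontal axis, positive downstream, scales differ). Filled bars lie at least partly in the target region and open bars outside it, coloured by list. PHF19 peaks sit at the TSS of NPC2, LAMP1 and CTSC, MTF2 peaks at that of NPC1 and ARSB, and the MTF2 peaks of TFEB more than 50 kb downstream of its reference TSS.

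At these 3 genes the ratios of sh#2 to shCT lay below the medians of the MTF2 peaks matched between both lists, though the width ratios lay within the quartiles. Of 6619 peaks matched 1 to 1 between both lists, 92.6% were wider in sh#2, and the median ratio of width in sh#2 over shCT was 1.59 (quartiles 1.21 to 2.19). NPC1, ARSB and TFEB had ratios of 1.38, 1.37 and 1.39, and 36.9 to 38.5% of the matched peaks had a lower one. The score was higher in sh#2 for 85.9% of matched peaks, with a median ratio of 1.82 (quartiles 1.24 to 2.66). NPC1 had a score ratio of 1.34, which lay within the quartiles. ARSB had 0.785 and TFEB 0.929, lower than in shCT, and 5.61% and 10.8% of matched peaks had lower ratios than these. The scores depend on the depth and control of each library, which are not known here, and their part in these ratios was not tested. By overlap of at least 1 bp, 0 of 43 had a peak in sh#2 and none in shCT, against 5.43% of all genes and 3.72% of expressed genes. The reverse held for 0 of 43, against 0.909% of all genes and 0.741% of expressed genes. TFEB changed these calls in opposite directions: it had a peak in sh#2 alone when 500 bp of overlap was required, and in shCT alone when both lists were reduced to the same number of strongest peaks. Of all MTF2 targets in shCT, 93.2% also had a peak in sh#2.

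**Figure D3:**
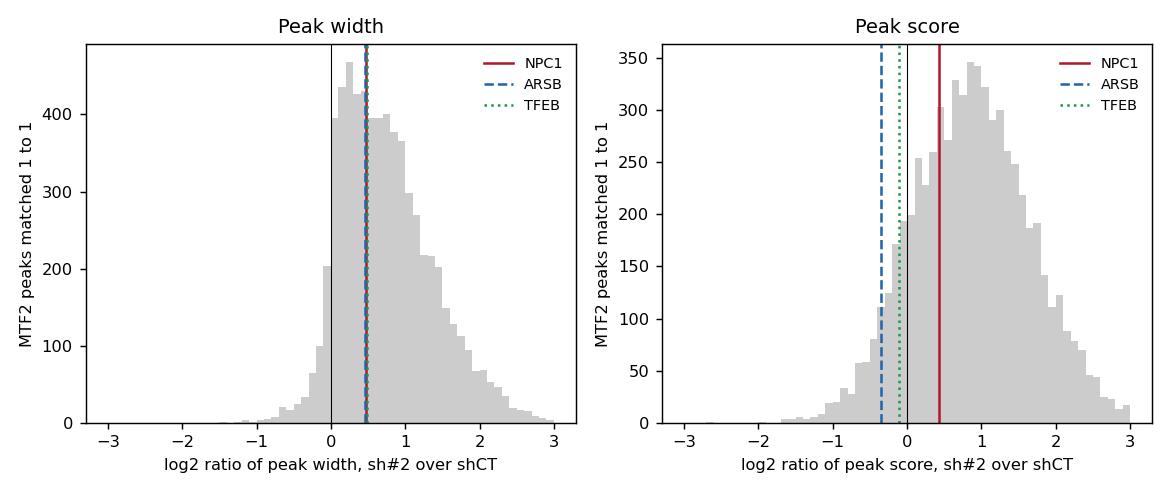
Histograms of the log2 ratio of MTF2 peak width (left) and peak score (right), sh#2 over shCT, for 6619 peaks matched 1 to 1, with the number of peaks on the vertical axis and log2 ratios beyond 3 in either direction not drawn. Vertical lines mark NPC1, ARSB and TFEB, whose widths all lie right of 0, while the scores of ARSB and TFEB lie left of 0 and that of NPC1 right of it.

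Several genes stood just outside the definition, and these neighbours were picked out after their positions were seen. A PHF19 peak of 2025 bp with a score of 82.6 lay upstream of NPC1 at chr18:21170330-21172354, between 5884 and 3860 bp before the TSS and 1360 bp outside the target region. It ended 11 bp short of the MTF2 peak of sh#2 and 166 bp short of that of shCT, so PHF19 and MTF2 peaks adjoined at NPC1 without overlapping. GAA encodes the acid alpha-glucosidase that breaks down glycogen. Its upstream MTF2 peak was 4390 bp wide in sh#2, from 7189 to 2800 bp before the TSS, against 1459 bp in shCT, from 6773 to 5315 bp before it. The sh#2 peak missed the target region of GAA by 252 bp. Beyond the end of TFEB, MTF2 peaks of 11147 bp in sh#2 and 11121 bp in shCT began 2416 bp and 2454 bp outside its target region.

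Of the 43 lysosomal genes, 30 stood above the median level of expressed genes and 13 below it. Levels are the authors' mean normalized count over all libraries divided by the length of the reference transcript, in normalized counts per kb, and have no error since no value per library was given. The median was 510 per kb over the 43 genes, against 236 over expressed genes and 15.0 over all genes placed. Further lysosomal lists are described below. Of these, 22 other hydrolases and activators had a median of 170 per kb and 20 other membrane proteins 228, below expressed genes. Above expressed genes were 21 V-ATPase subunits at 1193, 12 genes of the mTORC1 platform at 544 and 10 of mannose 6-phosphate sorting at 521. The 43 genes were listed with RNA results known, and the effect of that choice on their level was not tested. These values depend on the length used: per kb of the union of all exons, the median was 233 over the 43 genes, against 147 over expressed genes and 10.0 over all genes placed, and CTSC stood at 397. PSAP, the precursor of the saposins that activate sphingolipid hydrolases, was highest at 13253 per kb, ahead of PPT1, a palmitoyl-protein thioesterase, at 5399, and CTSC at 5274. At the low end, IDUA, the alpha-L-iduronidase, was at 59.9, CTSK at 47.7, and LIPA, the lysosomal acid lipase, at 1.20 per kb, with a mean normalized count of 2.99. LIPA was the only gene of the set below the minimum for an expressed gene.

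**Figure D4:**
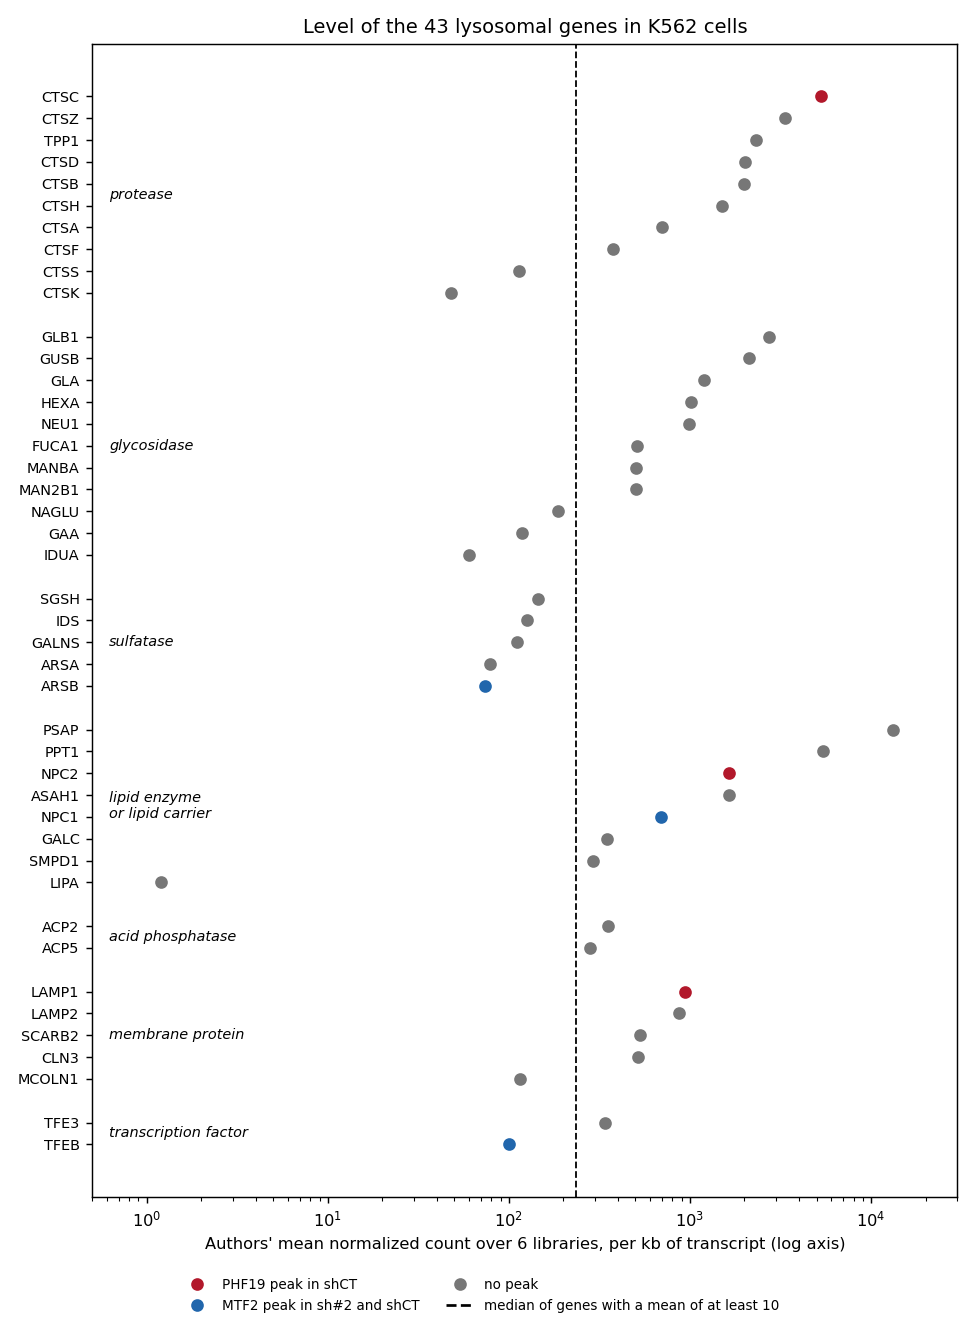
Level of each of the 43 lysosomal genes on a log axis, as the authors' mean normalized count over 6 libraries per kb of reference transcript, grouped by role. Red points have a PHF19 peak in shCT, blue points an MTF2 peak in sh#2 and shCT, grey points no peak, and the dashed line is the median of 236 per kb over expressed genes. The 3 PHF19 targets lie right of that line, as does the MTF2 target NPC1, while ARSB and TFEB lie left of it.

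By role, the 10 proteases had a median of 1740 per kb, the 8 lipid enzymes and lipid carriers 1164, the 5 membrane proteins 528, the 11 glycosidases 510, both acid phosphatases 317, both transcription factors 220 and the 5 sulfatases 110. The 5 sulfatases lay between 73.4 (ARSB) and 144 per kb (SGSH). The PHF19 targets were at 5274 per kb (CTSC), 1639 (NPC2) and 933 (LAMP1), and the MTF2 targets at 695 (NPC1), 100 (TFEB) and 73.4 (ARSB). ACP5 was at 280 and TFE3 at 339 per kb. The 6 genes with any peak had a median of 814 per kb and the 37 with none 505. The levels of the 6 genes with a peak were far above the medians of all targets. Those were 5.52 per kb over all 2467 PHF19 target genes, and for MTF2 targets 0.983 per kb in sh#2 and 0.992 in shCT. All 6 genes were expressed genes, against 57.3% of PHF19 targets, 38.4% of MTF2 targets in sh#2 and 38.6% in shCT. A median over expressed MTF2 targets alone was not taken. Among PHF19 targets, the 668 genes with no MTF2 peak in either list had a median of 218 per kb, and the 1598 that also had one in shCT 2.05. The median was 63.6 per kb over the 1413 expressed PHF19 targets and 320 over the 574 of these with no MTF2 peak in either list, and NPC2, LAMP1 and CTSC stood above both.

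The core of the TFEB and TFE3 element was frequent in the set. The 6 letters CACGTG, which read the same on both strands, occurred in the 300 bp promoter window of 14 of 43 genes (32.6%), against 8.12% of all genes and 9.8% of expressed genes. The longer form TCACGTGA, also a palindrome and always containing the shorter one, occurred in 7 of 43 (16.3%), against 1.25% of all genes and 1.85% of expressed genes. In the windows of the set there were 26 matches of CACGTG, of which 17 began within 100 bp upstream of the TSS, a distance also chosen after the positions were seen, and their median position was -48.5 bp. Matches occurred in 3 of 5 membrane proteins, 4 of 10 proteases, 4 of 11 glycosidases, 2 of 5 sulfatases and 1 of 2 acid phosphatases. Of 8 lipid genes and 2 transcription factors, 0 had a match. ACP5 had 1 match, at -181 bp.

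**Figure D5:**
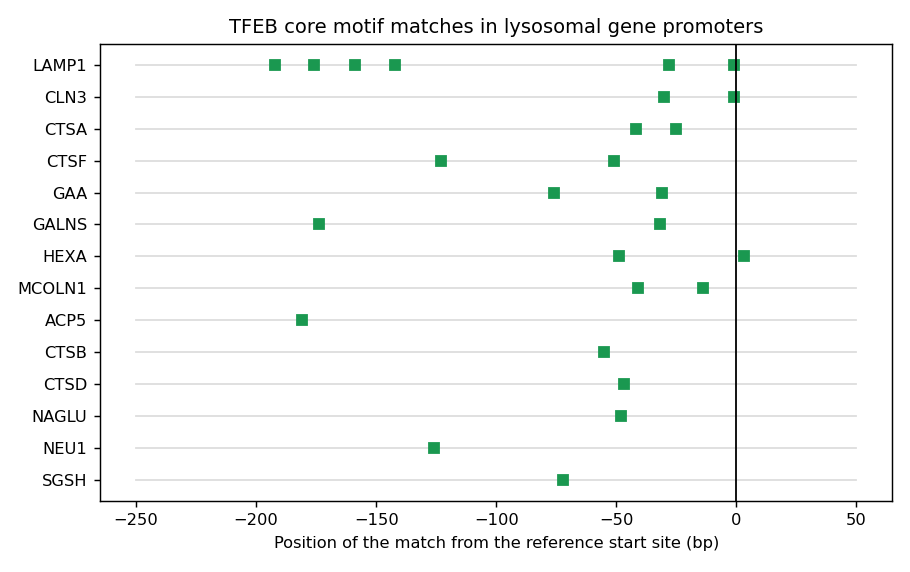
Position of each match of the core element in the promoter window of the 14 lysosomal genes that hold one, in bp from the reference TSS (horizontal axis, line at 0). Grey lines span the window of 300 bp. LAMP1 has 6 matches, and 17 of the 26 matches begin within 100 bp upstream of the TSS.

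In 8 genes there was more than 1 match. These are illustrated by LAMP1, with 250 bp before the TSS, and by MCOLN1, GAA and CTSA, with 100 bp, the last 3 chosen after their matches were seen. Sequences run 5′ to 3′ on the plus strand of GRCh37, with each CACGTG in capitals.
LAMP1 (chr13:113951304-113951553): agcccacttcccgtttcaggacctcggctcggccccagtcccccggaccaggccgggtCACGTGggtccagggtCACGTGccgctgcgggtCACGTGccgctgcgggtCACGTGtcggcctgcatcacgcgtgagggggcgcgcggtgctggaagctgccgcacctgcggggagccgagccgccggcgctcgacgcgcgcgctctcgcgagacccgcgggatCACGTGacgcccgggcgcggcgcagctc
MCOLN1 (chr19:7587410-7587509): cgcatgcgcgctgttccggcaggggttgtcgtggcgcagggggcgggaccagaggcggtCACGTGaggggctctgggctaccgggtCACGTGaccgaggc
GAA (chr17:78075280-78075379): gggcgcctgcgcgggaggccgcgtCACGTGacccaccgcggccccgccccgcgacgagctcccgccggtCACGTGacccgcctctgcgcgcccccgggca
CTSA (chr20:44519874-44519973): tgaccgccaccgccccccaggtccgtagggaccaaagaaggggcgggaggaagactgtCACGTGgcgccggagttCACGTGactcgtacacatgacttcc
MCOLN1 encodes the lysosomal calcium channel mucolipin-1, and CTSA the protective protein cathepsin A, which stabilizes beta-galactosidase and neuraminidase. The LAMP1 stretch held 5 matches and 40 CpGs, and its sixth match spans the TSS. LAMP1 was the only gene of the set with both a match and a peak of any list: its PHF19 peak, from 630 bp upstream to 302 bp downstream, covers all 6 matches. Of the 6 genes with a peak, 1 had a match (16.7%), and of the 37 without one, 13 (35.1%). These letters describe sequence only and do not show which protein, if any, reads them. Binding of TFEB, TFE3 or any other factor to them was not measured.

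Other lysosomal genes were counted in the same way, against 10.1% of all genes with a PHF19 peak in shCT and, for MTF2, 17.9% in sh#2 and 13.4% in shCT. Among 21 subunits of the V-ATPase, the proton pump that acidifies the lysosome, 6 had a PHF19 peak in shCT (28.6%, interval 11.3 to 52.2%): ATP6V0A1, ATP6V0E2, ATP6V1B1, ATP6V1B2, ATP6V1C2 and ATP6V1E2. MTF2 had 2 of the 21 in sh#2 (9.52%) and 1 in shCT (4.76%). ATP6V1B1, a subunit of kidney and inner ear, was listed at 0, whereas ATP6V1B2 was at 2216 per kb. Among 20 other lysosomal membrane proteins, 6 had a PHF19 peak (30%, interval 11.9 to 54.3%): TMEM192, CLCN7, OSTM1, TPCN2, LMBRD1 and ABCB9. CLCN7 and OSTM1 form the chloride-proton exchanger of the lysosome. TMEM192, OSTM1, TPCN2 and LMBRD1 also had MTF2 peaks in sh#2 and in shCT (20% of the list in each). Among 22 other hydrolases and their activators, 3 had a PHF19 peak (13.6%), in CTSV, GM2A and SUMF1, while MTF2 had 3 in sh#2 (13.6%) and 1 in shCT (4.55%). RRAGD, of the Rag GTPases that hold mTORC1 on the lysosome, was the 1 gene of 12 on that platform with a peak (8.33%), and it had one in all 3 lists. The 10 genes of mannose 6-phosphate sorting had 0 peaks in any list. The 5 lists are short, their intervals overlap that of the 43 genes, and the differences were not tested.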

How the data were processed

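Members, lists and display sequences were chosen with earlier results of these data known. For RNA-seq, the authors mapped reads to hg19 with TopHat, counted them over RefSeq exons and compared both hairpins with shCT by DESeq2. The deposited table holds, per gene, a mean normalized count over all libraries, used here as a score of level, and 5 columns of that comparison (log2 fold change, its standard error, statistic, p-value and adjusted p-value), which were not used. For ChIP-seq, Bowtie was used by the authors to map reads to the human and fly genomes, and peaks were called with MACS (shift size 100 bp). Each deposited peak has coordinates and a score, from 50 upward, but neither tag counts nor signal, so depth is unknown and the authors' minimum of tags for PHF19 peaks and spike-in scaling could not be applied. Tool names come from the study's methods and the submitters' processing notes. Their versions were not given in the sources used here.

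Here, genes were placed by GENCODE release 44 on GRCh37, the assembly of hg19, and 24410 of 27348 symbols matched, older RefSeq symbols included. The reference transcript was MANE Select or else the canonical one. Coordinates are 1-based. Peaks were intersected in Python 3.11.15 with numpy 2.4.6 and scipy 1.17.1 (exact binomial 95% intervals), figures were drawn with matplotlib 3.10.9, and peak assignment was tested on simulated data. Named genes were ACP5, NPC2, all members with a peak, the 3 highest and 3 lowest levels, and genes of the other lists with a PHF19 peak. Genes beyond this rule were named after their values were seen. Alternatives covered overlap, score, region, transcript, list size, length and window.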

Additional observations from a re-analysis of the deposited data

How the results depend on the processing

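Counts of targets rested on few genes. With at least 500 bp of overlap, 1 gene (TFEB) had an MTF2 peak in sh#2 and none in shCT. With the same number of strongest peaks in both MTF2 lists, 1 gene (again TFEB) had a peak in shCT and none in sh#2. With peaks at or above the median score of their list, LAMP1 was no longer a PHF19 target and TFEB no longer an MTF2 target, which left 2 genes in each list. The median level of the 43 genes was 233 per kb with the union of all exons as length, and 512 per kb over the 42 expressed members. With TCACGTGA in place of CACGTG, 7 genes had a match, and in the window from 1 kb upstream to 500 bp downstream the median observed over expected CpG was 0.673. In all, 34 alternative counts equalled the reported count or stayed within 1.5 times it, and the counts at or above the median score were among them. Many of these found no gene under either setting, where a limit of 1.5 times has no meaning. Measured values were not judged by this limit, and each alternative changed them, as given above. Of these, 512 per kb and the CpG value of 0.673 also lay within 1.5 times the reported value, and 233 per kb did not. The combination of PHF19 with MTF2 peaks was added after the data were seen. No paired analysis was possible because the expression table gives no values per library, and leaving out a replicate was not possible for the same reason. With 1 library per ChIP-seq condition, variation between experiments was not measured.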

Other observations

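Matches of CACGTG in the 300 bp promoter window were also counted in the other lysosomal lists. They occurred in 5 of 12 genes of the mTORC1 platform (41.7%), 4 of 10 of mannose 6-phosphate sorting (40%), 6 of 21 V-ATPase subunits (28.6%), 4 of 22 other hydrolases (18.2%) and 3 of 20 other membrane proteins (15%), against 8.12% of all genes. PHF19 targets in shCT as a whole had a match in 8.55%, and PHF19 targets with no MTF2 peak in either list in 10.5%. Of the 5621 PHF19 peaks, 2195 overlapped no MTF2 peak in either list (39%), the class of the 4 PHF19 peaks at lysosomal genes. They had a median width of 1229 bp, a median score of 63.82 and a median GC content of 42.6%. Over all PHF19 peaks these medians were 1625 bp, 72.28 and 47.8%. The LAMP1 peak, at 70.5% GC, and the distal CTSC peak, at 38.2% GC, lay on opposite sides of both GC medians. No explanation was tested.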
